A study of Mus musculus with 6 samples.

Results

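The genes described here encode the translation initiation factors (eIFs) and elongation factors (eEFs) of the cytosol, with their closest regulators. The family was chosen with earlier results of these data known, and its members were then set by GENCODE M21 symbol. Every gene whose symbol begins with Eif1 to Eif6, Eef1 or Eef2 was taken, leaving out the eIF2 kinases (Eif2ak) and pseudogenes. Of 65 such genes in the annotation, 59 were among the 12942 genes measured (49 Eif and 10 Eef symbols), and 57 passed a filter on low values and were tested. Eif2s3y and Eif3j2 did not pass it. The other 6 (Eef1a2, Eef1akmt3, Eef1akmt4, Eif4e1b, Eif4ebp3 and Eif2c5, a noncoding RNA gene) were not analysed here.

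RNA was sequenced from iNKT1 cells sorted from mouse liver, a subset of CD1d-restricted T lymphocytes marked by T-bet, the factor encoded by Tbx21. The cKOHet mice carried Tbx21Cre, the Rosa26-YFP reporter, 2 floxed Ets1 alleles (Ets1F/F) and 1 floxed Tbx21 allele (Tbx21F/+). Control mice carried Tbx21Cre and the reporter without floxed alleles, so Cre and YFP were common to both groups. Recombination follows T-bet expression with this Cre, and the cells were gated as CD1d tetramer-positive and YFP-positive. Each group had 3 libraries, numbered 1, 2 and 4. No source used here gives the age of the mice or says whether animals were pooled. The comparison asks what losing Ets1, with 1 floxed copy of Tbx21, does to these cells. Every cKOHet library carried both changes, so their effects cannot be told apart.

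Translation begins when eIF2, bound to GTP and the initiator tRNA, joins the small ribosomal subunit with eIF1, eIF1A, eIF3 and eIF5, while eIF4F binds the cap of the mRNA and unwinds its leader. eIF2B then recharges eIF2 with GTP, and it is the step that is blocked when eIF2 is phosphorylated. In elongation, eEF1A delivers aminoacyl-tRNA, the eEF1B complex recharges eEF1A, and eEF2 moves the ribosome along. Lymphocytes raise this capacity when they leave quiescence, largely through mTORC1, which phosphorylates the eIF4E-binding proteins and lowers the activity of eEF2 kinase.

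Values are normalised read counts, whose column sums lay between 4996523 and 5219483. Ets1 was at 462.3, 595.8 and 441.4 in cKOHet libraries, against 7391, 6255 and 7787 in controls, as the genotypes are labelled. Tbx21, with 1 floxed allele in cKOHet mice, averaged 2206 ± 98.5 in cKOHet and 2568 ± 174.4 in control cells and was not called (log2 difference -0.22, adjusted p = 0.196). Of 8 iNKT and T cell genes, Cd3d, Cd3e and Cd3g lay between 2510 and 6452 in all 6 libraries and were not called. In the same list Zbtb16 was called higher (954.3 ± 260.5 in cKOHet, 647.9 ± 21.7 in control) and Il2rb lower (12375 ± 1882 in cKOHet, 20260 ± 338.3 in control), and the other 3 were not called. The 5 macrophage and Kupffer cell markers summed to 104 to 123 in cKOHet libraries and 26 to 77 in controls. Of these, Csf1r and Clec4f were called higher in cKOHet, while Lyz2 and Cd68 overlapped between the groups and were not called. Adgre1, too low to test, was at 1.79 to 16.1 in cKOHet libraries and 0.04 to 2.72 in controls. The 4 hepatocyte markers summed to 244 to 621 in cKOHet libraries and 185 to 353 in controls. The endothelial marker Pecam1 was called lower, at 43.5 ± 7.48 in cKOHet and 196.4 ± 23.9 in control cells, while Stab2, too low to test, was at 1.01 to 12.4 in cKOHet libraries and 0.04 to 3.67 in controls. The erythroid gene Hba-a1, also not tested, was at 7.40 to 33.2 in cKOHet libraries and at most 0.06 in controls. Kdr, Cdh5 and the 4 B cell markers were not analysed here. The 5 proliferation markers summed to 1622 to 1802 in cKOHet libraries and 1288 to 2636 in controls, and none was called. In such bulk samples, fewer cells of a type and less RNA per cell cannot be told apart. Replicate 4 of each group stood apart, with Xist at 0.08 in cKOHet and 1.17 in control, against 4337 to 5657 in the other 4 libraries.

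Most translation factor genes were at similar levels in the cKOHet and control groups, and 6 of the 57 tested passed the test. Eef2k (eEF2 kinase) and Eif4e3 (a cap-binding relative of eIF4E) rose in cKOHet cells. Eif2b2 (the beta subunit of eIF2B), Eef1g (the gamma subunit of eEF1B), Eif3d and Eif3g (both subunits of eIF3) fell. Calls here mean a limma adjusted p below 0.05, with adjustment over 11226 genes. The 6 calls are 10.5% of the members, against 21.4% of all genes tested. The 2 that rose compare with 11.5% of all genes called higher and the 4 that fell with 9.97% called lower. Only Eef2k changed by at least 2-fold, as 10.4% of all genes did. Without control replicate 1 no member was called lower. At an adjusted p below 0.01 only Eif4e3, which rose, was called.

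Fold changes are given as log2 differences, cKOHet minus control, on log2(value + 1), a scale that understates change in low genes. Over the 57 members they ran from -0.61 to 1.39 with a median of -0.06, against -10.58 to 9.26 and a median of 0.01 over all genes. The 95% interval lay within 1 of 0, that is within a 2-fold change, for 54 of the 57, against 62.1% of all genes. The members were also more abundant, with a median level of 637.4 against 168.3 over all genes, and their median standard error was 0.14 against 0.21. The log2 difference was below 0 for 36 of 57 members (63.2%), against 49.2% of all genes. The groups did not overlap at 15 members, against 35.8% of all genes. These 15 include 9 of the 51 members not called. A lack of overlap is given below for single genes as a description, not as a call. An unadjusted p under 0.05 was found for 17 members, against 32.2% of all genes.

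**Figure D1:**
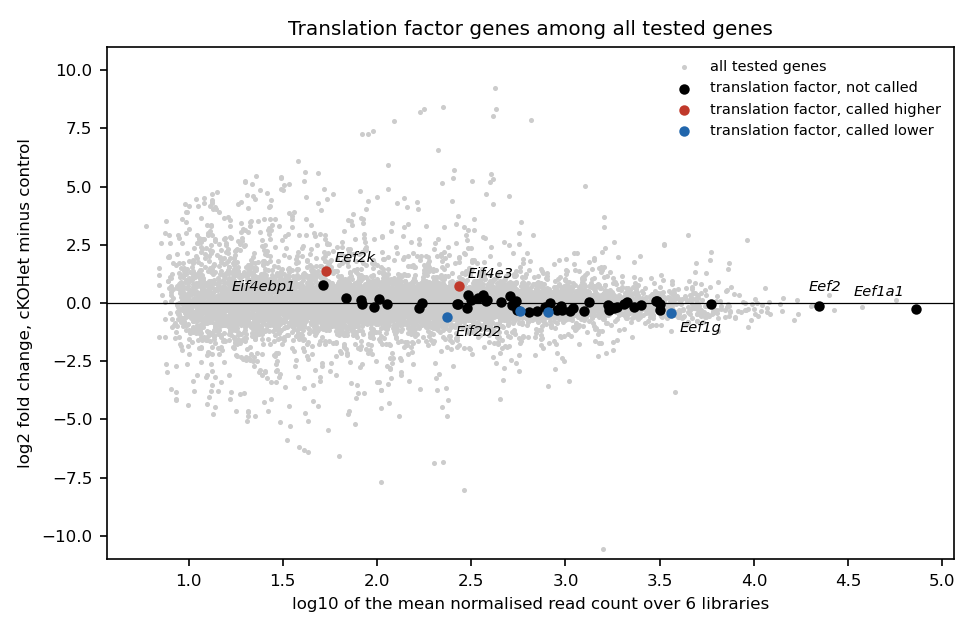
Each point is a gene, with the log10 of its mean normalised read count over 6 libraries on the horizontal axis and its log2 fold change, cKOHet minus control, on the vertical axis. Grey points are the 11226 genes tested, and black, red and blue points are the 57 translation factor genes, which lie between -0.61 and 1.39.

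**Figure D2:**
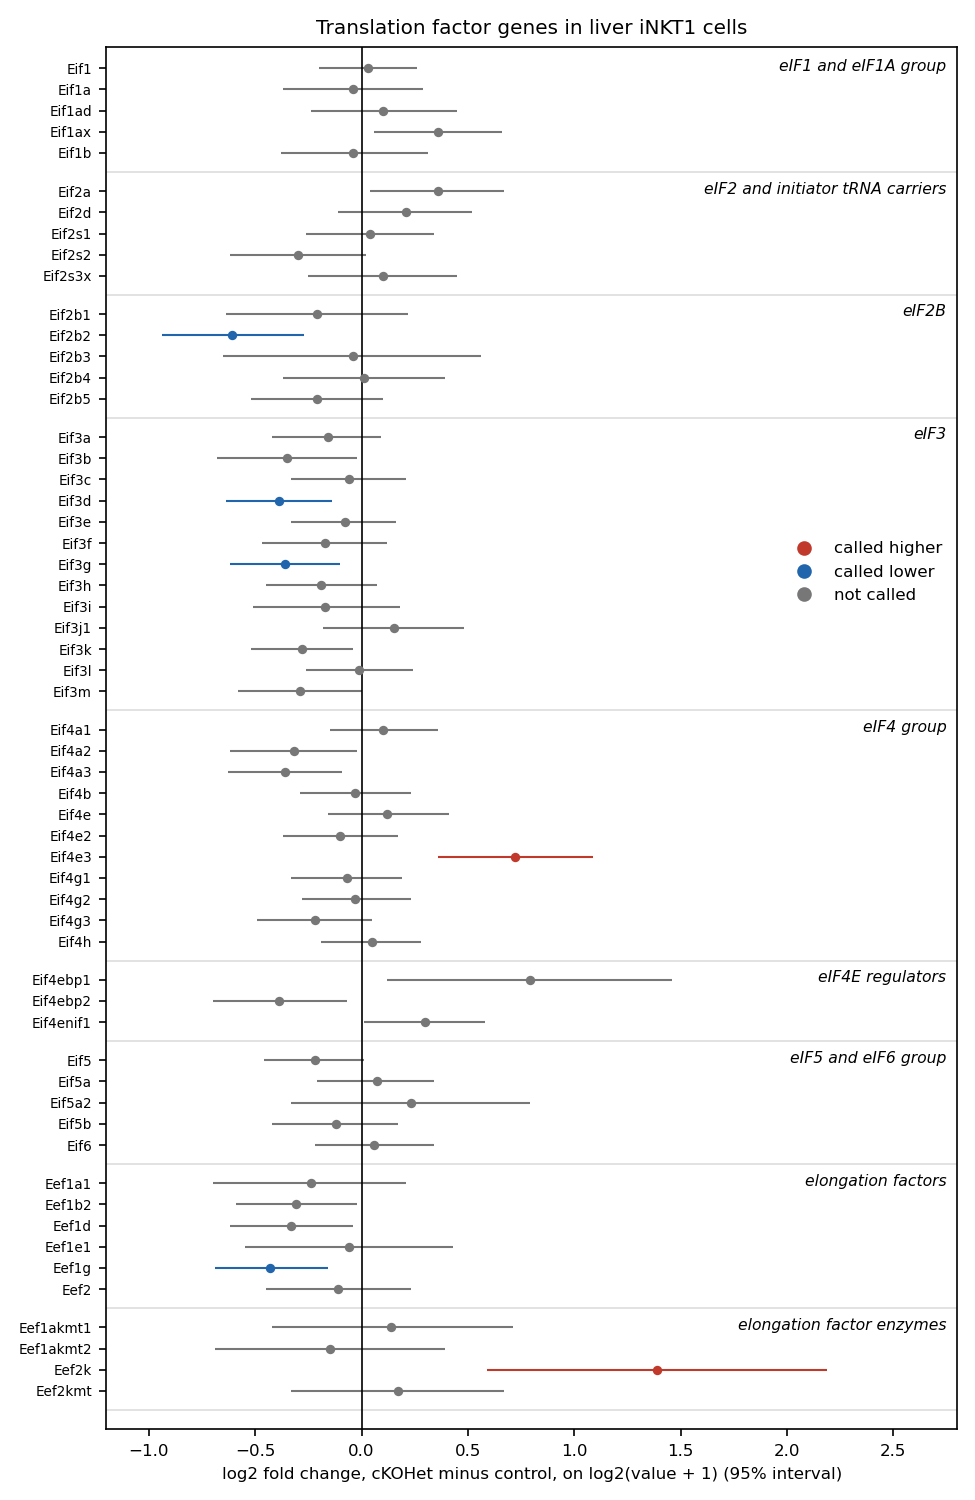
Log2 fold change of each tested translation factor gene, cKOHet minus control, with its 95% interval from limma, grouped by role. Red and blue mark the 2 genes called higher and the 4 called lower. The intervals of the other 51 lie mostly across 0.

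The eIF1 and eIF1A genes, whose products keep the scanning ribosome open until it meets the start codon, gave no call among 5 tested. Over all genes 21.4% were called. Eif1 itself averaged 2156 ± 102.4 in cKOHet libraries and 2111 ± 102.6 in controls (SD, n = 3 each), a log2 difference of 0.03 with a 95% interval of -0.20 to 0.26. Its paralog Eif1b was at 261.9 ± 20.5 in cKOHet and 269.8 ± 38.5 in control cells. Of the eIF1A genes, the X-linked Eif1ax was at 405.9, 398.6 and 429.8 in cKOHet libraries, against 282.4, 322.8 and 359.4 in controls. All 3 cKOHet libraries lay above all 3 controls, but the gene did not pass the test (log2 difference 0.36, SE 0.14, adjusted p = 0.0873). Its autosomal counterpart Eif1a averaged 265.8 ± 32.5 in cKOHet and 272.2 ± 20.4 in control cells. Eif1a and Eif1ax are close copies, and no source used here says how the authors' counting split reads between such copies. Eif1ad, named for an eIF1A-like domain, was also not called (393.3 ± 67.7 in cKOHet, 365.0 ± 53.2 in control).

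No eIF2 subunit gene passed the test. The alpha subunit gene Eif2s1, whose product is the target of the eIF2 kinases, averaged 548.2 ± 77.3 in cKOHet cells and 530.5 ± 52.2 in controls, with an interval of -0.26 to 0.34. The beta subunit gene Eif2s2 was at 500.7 ± 89.4 in cKOHet and 611.9 ± 63.3 in control cells (log2 difference -0.30, adjusted p = 0.189). Eif2a and Eif2d encode proteins outside the eIF2 complex that can also bring tRNA to the ribosome. Eif2a was at 377.7, 336.5 and 314.3 in cKOHet libraries, against 289.8, 259.5 and 252.7 in controls. Its groups did not overlap, but the difference of 0.36 missed the threshold (SE 0.15, adjusted p = 0.104). Exons of Eif2a share 72 bases with those of Serp1 on the opposite strand, which was called higher (log2 difference 0.91, adjusted p = 0.000109). No source used here says whether counting used strand, and the part of those reads in Eif2a was not tested. Eif2d averaged 368.4 ± 43.3 in cKOHet and 318.7 ± 28.7 in control cells (adjusted p = 0.375).

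The gamma subunit of eIF2 has an X-linked and a Y-linked gene in the mouse, and both varied by replicate rather than by group. Eif2s3y was at 0.01, 0.00 and 428.4 in cKOHet replicates 1, 2 and 4, against 0.00, 0.10 and 411.8 in the controls of the same numbers. Only the replicate 4 libraries, those lacking Xist, held its reads, which is why it failed the filter. The Y-linked helicase gene Ddx3y showed the same pattern, at 604.3 in cKOHet and 518.6 in control replicate 4 and at most 1.16 elsewhere. Eif2s3x was at 603.3, 622.0 and 459.0 in cKOHet replicates 1, 2 and 4, against 619.5, 542.2 and 414.4 in controls. In each group its lowest value was in replicate 4. The sum of the pair reached 887.4 in cKOHet and 826.2 in control replicate 4, above the 542.3 to 622.0 of the other 4 libraries. Between genotypes Eif2s3x was not called (log2 difference 0.10, interval -0.25 to 0.45, adjusted p = 0.731). Without control replicate 4 its log2 difference was -0.06.

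**Figure D3:**
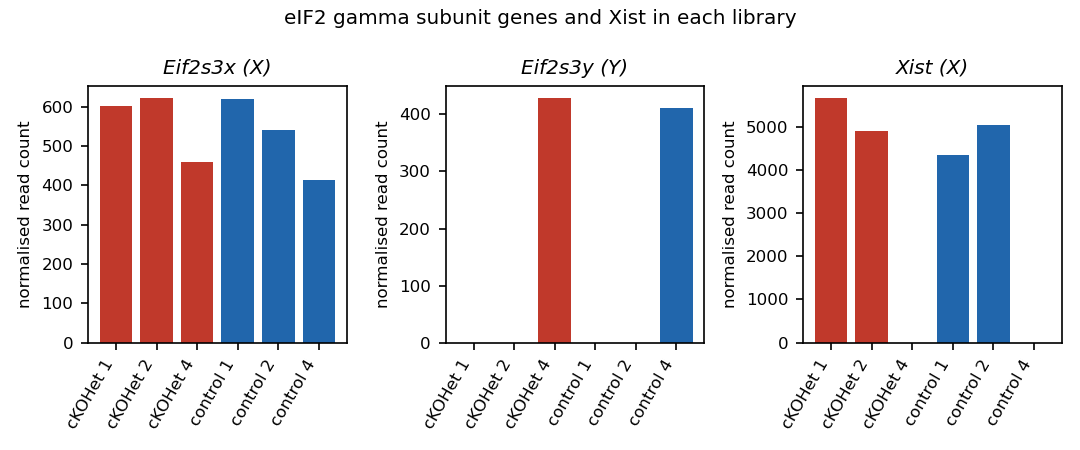
Normalised read counts of Eif2s3x, Eif2s3y and Xist in the 3 cKOHet libraries (red) and the 3 control libraries (blue), 1 bar per library. Eif2s3y is at 428.4 and 411.8 in the 2 libraries of replicate 4 and at most 0.10 elsewhere, and Eif2s3x is lowest in those libraries within each group.

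In eIF2B, the exchange factor that reloads eIF2 with GTP, 1 of 5 subunit genes fell (20%, against 9.97% of all genes called lower). Eif2b2 (ENSMUSG00000004788, mm10 chromosome 12, 85219481 to 85226628, plus strand) was at 178.3, 190.9 and 190.5 in cKOHet libraries, against 302.9, 256.3 and 295.9 in controls. Every cKOHet library lay well below every control, and the spread within groups was small (186.5 ± 7.16 in cKOHet, 285.0 ± 25.1 in control). The log2 difference was -0.61 (SE 0.16, adjusted p = 0.0115). Of the other subunits, Eif2b5, which holds the catalytic centre, was at 303.2, 250.2 and 281.0 in cKOHet libraries and 318.5, 312.2 and 331.9 in controls. These groups did not overlap either, but Eif2b5 was not called (log2 difference -0.21, adjusted p = 0.356). Eif2b1, Eif2b3 and Eif2b4 differed by -0.21, -0.04 and 0.01 with adjusted p of 0.524, 0.938 and 0.981. The ratio of Eif2b2 to the summed counts of the other 4 subunits, a measure chosen after the values were seen, was 0.256, 0.284 and 0.270 in cKOHet libraries, against 0.412, 0.326 and 0.392 in controls. The call of Eif2b2 ended without control replicate 1 (adjusted p = 0.0578) and in the 4 libraries with Xist alone (0.0576). Its log2 difference was -0.56 and -0.59 there, and over all 17 alternatives its adjusted p ranged from 0.00875 to 0.0578.

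eIF3 is the largest initiation factor, a scaffold of many subunits that holds the small ribosomal subunit and the mRNA together. Of its 13 tested genes 2 fell (15.4%, against 9.97% of all genes called lower) and none rose (against 11.5% called higher). Eif3d (ENSMUSG00000016554, chromosome 15, 77958998 to 77970813, minus strand), whose product can itself bind the cap of some mRNAs in human cells, was at 756.4, 644.1 and 687.9 in cKOHet libraries. Controls stood at 907.5, 905.0 and 923.8. The groups were clearly apart, and the log2 difference was -0.39 (SE 0.12, adjusted p = 0.0249). Eif3g (ENSMUSG00000070319, chromosome 9, 20894349 to 20898623, minus strand), an RNA-binding subunit, was at 503.6, 483.8 and 521.4 in cKOHet libraries, against 612.0, 635.0 and 688.1 in controls. Its difference of -0.36 (SE 0.12) lay just inside the threshold, with an adjusted p = 0.048. Exons of Eif3d share 2151 bases with Gm17638 on the opposite strand, which was low (7.73 in cKOHet and 10.2 in control cells on average).

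The remaining eIF3 genes did not pass the test. The log2 difference was below 0 for 12 of the 13, against 49.2% of all genes, and its median over the 13 was -0.17. Among the 12, Eif3c, Eif3f, Eif3i and Eif3l changed sign in some alternatives. Eif3k was at 833.9, 792.4 and 825.3 in cKOHet libraries, against 1026, 978.9 and 970.4 in controls, with no overlap and a log2 difference of -0.28 (adjusted p = 0.0924). Eif3b, a core subunit, averaged 1102 ± 224.4 in cKOHet and 1393 ± 187.7 in control cells (-0.35, adjusted p = 0.127). Eif3m was at 869.4 ± 166.8 in cKOHet and 1053 ± 71.2 in control cells (-0.29, adjusted p = 0.162). Eif3a, which encodes the largest subunit, had the highest count of the eIF3 genes, though per kilobase of exon Eif3h and others stood higher. Eif3a averaged 2174 ± 235.2 in cKOHet and 2431 ± 152.5 in control cells, with an interval of -0.42 to 0.09. Eif3c, Eif3e, Eif3f, Eif3h, Eif3i and Eif3l differed by -0.19 to -0.01. Eif3j1, a loosely bound subunit, was the exception at 0.15 (adjusted p = 0.562), and its close copy Eif3j2 was at 4.58 to 7.05 in all libraries. Summed over eIF3, counts were 15323, 14905 and 15057 in cKOHet libraries, against 16808, 16175 and 18167 in controls.

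The call of Eif3g, kept in 8 of 17 alternatives, ended when any 1 library was left out (adjusted p = 0.0522 to 0.158), while its log2 difference stayed between -0.39 and -0.31. It also ended with no filter (0.0551) and with a replicate block (0.0601). Eif3d lost its call without cKOHet replicate 2 (adjusted p = 0.101) or without control replicate 1, 2 or 4 (0.0773, 0.0663 and 0.0702). Over 17 alternatives the adjusted p ranged from 0.0388 to 0.158 for Eif3g and from 0.017 to 0.101 for Eif3d. Eif3m was called without cKOHet replicate 1 (log2 difference -0.44, adjusted p = 0.0262).

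Among the eIF4 genes, which bind the cap and unwind the leader of the mRNA, 1 of 11 tested rose (9.09%, against 11.5% of all genes called higher). Eif4e3 (ENSMUSG00000093661, chromosome 6, 99625135 to 99666771, minus strand) was at 320.3, 308.7 and 391.2 in cKOHet libraries, against 244.6, 172.0 and 203.0 in controls. All cKOHet libraries exceeded all controls, and the log2 difference was 0.72 (SE 0.17, adjusted p = 0.00667). Its exons share 373 bases on the same strand with Gm20696, which was not analysed here. Eif4e, the main cap-binding protein, was hardly different, at 402.4 ± 35.4 in cKOHet and 368.3 ± 5.55 in control cells (0.12, interval -0.16 to 0.41). The count ratio of Eif4e3 to Eif4e, chosen after the values were seen, was 0.869, 0.773 and 0.891 in cKOHet libraries, against 0.673, 0.459 and 0.553 in controls. Eif4e2, a cap-binding protein without the ability to recruit eIF4G, averaged 504.8 ± 32.6 in cKOHet and 540.3 ± 35.4 in control cells. The call of Eif4e3 held in 16 of 17 alternatives, with adjusted p from 0.00469 to 0.0723, and ended in the 4 libraries with Xist alone (log2 difference 0.61, adjusted p = 0.0723). Csf1r, a macrophage marker, was low but also higher in cKOHet libraries (27.2, 24.2 and 27.0, against 11.9, 2.20 and 4.32 in controls), and its part in the rise of Eif4e3 was not tested.

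No scaffold or helicase gene of eIF4F was called. Eif4g1, the main scaffold, averaged 2447 ± 278.2 in cKOHet and 2570 ± 218.9 in control cells, with an interval of -0.33 to 0.19. Eif4g2, a related scaffold that does not bind eIF4E, was at 5852 ± 393.8 in cKOHet and 5952 ± 245.0 in control cells (-0.28 to 0.23), and Eif4g3 differed by -0.22 (adjusted p = 0.255). The helicase gene Eif4a1 averaged 3178 ± 337.1 in cKOHet and 2950 ± 141.5 in control cells (0.10, interval -0.15 to 0.36). Its paralog Eif4a2 was at 1822, 1258 and 1460 in cKOHet libraries and 2069, 1862 and 1684 in controls, a difference of -0.32 that was not called (adjusted p = 0.13). Without cKOHet replicate 1 it was called, at -0.46 (adjusted p = 0.0274), and its adjusted p ranged from 0.0274 to 0.431 over 17 alternatives. The count ratio of Eif4a2 to Eif4a1, chosen after the values were seen, was 0.511, 0.426 and 0.483 in cKOHet libraries, against 0.685, 0.668 and 0.553 in controls. The pair was picked with its opposite signs known, so a gap in this ratio is a description and not a test. Eif4a3, an eIF4A relative in the exon junction complex, came closest to a call. It was at 650.6, 645.1 and 552.7 in cKOHet libraries, against 863.2, 766.8 and 738.9 in controls, with no overlap (log2 difference -0.36, adjusted p = 0.0544). It was called with a filter of 50 (adjusted p = 0.0498), with library weights (0.0483) and with a term for libraries without Xist (0.0407), and its adjusted p ranged from 0.0407 to 0.22 over 17 alternatives. Eif4b and Eif4h, which stimulate the helicase, differed by -0.03 and 0.05.

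The 3 tested regulators of eIF4E were not called. Their groups did not overlap, as at 35.8% of all genes, with 2 higher and 1 lower in cKOHet. Eif4ebp1, an mTORC1-controlled repressor of eIF4E, was at 59.4, 78.9 and 58.3 in cKOHet libraries, against 50.8, 31.7 and 31.8 in controls. Its log2 difference of 0.79 was the largest among members not called (SE 0.31, adjusted p = 0.0923), and its interval of 0.12 to 1.46 was wide. Eif4ebp2, the more abundant repressor of the pair by count, lay the other way, at 439.1, 556.1 and 676.5 in cKOHet libraries and 693.3, 738.3 and 720.9 in controls. The difference was -0.39 (SE 0.15, adjusted p = 0.0829). It passed without cKOHet replicate 4 (-0.54, adjusted p = 0.0161), in the 4 libraries with Xist (-0.53, adjusted p = 0.0391) and with library weights (-0.41, adjusted p = 0.0455). Over 17 alternatives its adjusted p ranged from 0.0161 to 0.302. Eif4enif1, which carries eIF4E into the nucleus and to sites of mRNA repression, was at 495.5, 572.8 and 603.6 in cKOHet libraries and 494.8, 446.2 and 419.7 in controls (0.30, adjusted p = 0.14).

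The genes for eIF5, eIF5A, eIF5B and eIF6 gave no call among 5, against 21.4% of all genes called. Eif5, which triggers GTP hydrolysis on eIF2 at the start codon, was at 1800, 1575 and 1659 in cKOHet libraries, against 2007, 1947 and 1907 in controls. The groups did not overlap, and the log2 difference of -0.22 had an adjusted p = 0.183. Eif5a, whose hypusine-bearing product helps the ribosome past difficult stretches, averaged 3081 ± 123.7 in cKOHet and 2969 ± 496.8 in control cells (interval -0.21 to 0.34). Its relative Eif5a2 was at 73.8 ± 8.52 in cKOHet and 63.1 ± 10.1 in control cells. Eif5b, which joins the ribosomal subunits, differed by -0.12, and Eif6, which keeps the large subunit free until it is ready, by 0.06 (interval -0.22 to 0.34).

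The elongation factor genes held most of the reads of the family, and 1 of 6 tested fell (16.7%, against 9.97% of all genes called lower). Eef1g (ENSMUSG00000071644, chromosome 19, 8967041 to 8978479, plus strand) was at 3369, 2896 and 3049 in cKOHet libraries, against 4542, 3697 and 4292 in controls. The groups did not overlap and the log2 difference was -0.43 (SE 0.12, adjusted p = 0.0212). The other eEF1B subunit genes, Eef1b2 and Eef1d, which hold the exchange activity, had differences of -0.31 and -0.33 (adjusted p = 0.127 and 0.101). Eef1b2 averaged 2859 ± 524.1 in cKOHet and 3506 ± 219.8 in control cells, and Eef1d averaged 936.0 ± 146.3 in cKOHet and 1172 ± 122.7 in control cells. In both, cKOHet replicate 1 overlapped the controls, and without it both were called (log2 difference -0.45 each, adjusted p = 0.0187 for Eef1b2 and 0.0346 for Eef1d). Eef1e1, a partner of the aminoacyl-tRNA synthetases, was at 110.5 ± 20.0 in cKOHet and 115.1 ± 19.0 in control cells. The call of Eef1g ended without cKOHet replicate 2 (adjusted p = 0.0877), without control replicate 1 or 4 (0.117 and 0.069) and in the 4 libraries with Xist alone (0.103). Over 17 alternatives its adjusted p ranged from 0.0123 to 0.117 and its log2 difference from -0.51 to -0.36.

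Eef1a1, which encodes the tRNA carrier eEF1A, was the most abundant member. It was at 75408, 61310 and 61540 in cKOHet libraries, against 90501, 68136 and 76771 in controls. The groups overlapped, and the log2 difference of -0.24 was not called (interval -0.70 to 0.21, adjusted p = 0.478). It took 1.29% ± 0.174 of all counts in cKOHet libraries and 1.54% ± 0.209 in controls (SD, n = 3 each). Eef2, the translocase, averaged 21168 ± 623.2 in cKOHet and 23038 ± 3096 in control cells, with an interval of -0.45 to 0.23. The log2 difference was below 0 for all 6 elongation factor genes, against 49.2% of all genes, with a median of -0.28. Of the 6, 5 were not called, and Eef1e1 (-0.06) changed sign without cKOHet replicate 2 (0.06) or control replicate 1 (0.05).

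Eef2k, the kinase that phosphorylates eEF2 and slows elongation, had the largest change of the family. The gene (ENSMUSG00000035064, chromosome 7, 120842831 to 120907450, plus strand) was at 45.3, 84.5 and 105.0 in cKOHet libraries, against 23.9, 41.2 and 21.2 in controls. The lowest cKOHet library, replicate 1, lay only just above the highest control, replicate 2. The log2 difference was 1.39 (SE 0.38, adjusted p = 0.015), and the ratio of the group means was 2.72. Its exons share 101 bases with Gm15774 on the opposite strand, which was not analysed here. The call ended without cKOHet replicate 2 (log2 difference 1.29, adjusted p = 0.0631), cKOHet replicate 4 (1.14, 0.0902) or control replicate 4 (1.21, 0.0596), and in the 4 libraries with Xist alone (0.96, 0.207). Its adjusted p ranged from 0.00557 to 0.207 over 16 alternatives. The Kupffer cell marker Clec4f also rose (26.6 ± 5.44 in cKOHet and 5.84 ± 4.95 in control cells), and its part in the rise of Eef2k was not tested. The 3 methyltransferase genes that act on eEF1A or eEF2 were not called: Eef2kmt differed by 0.17, Eef1akmt1 by 0.14 and Eef1akmt2 by -0.15.

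**Figure D4:**
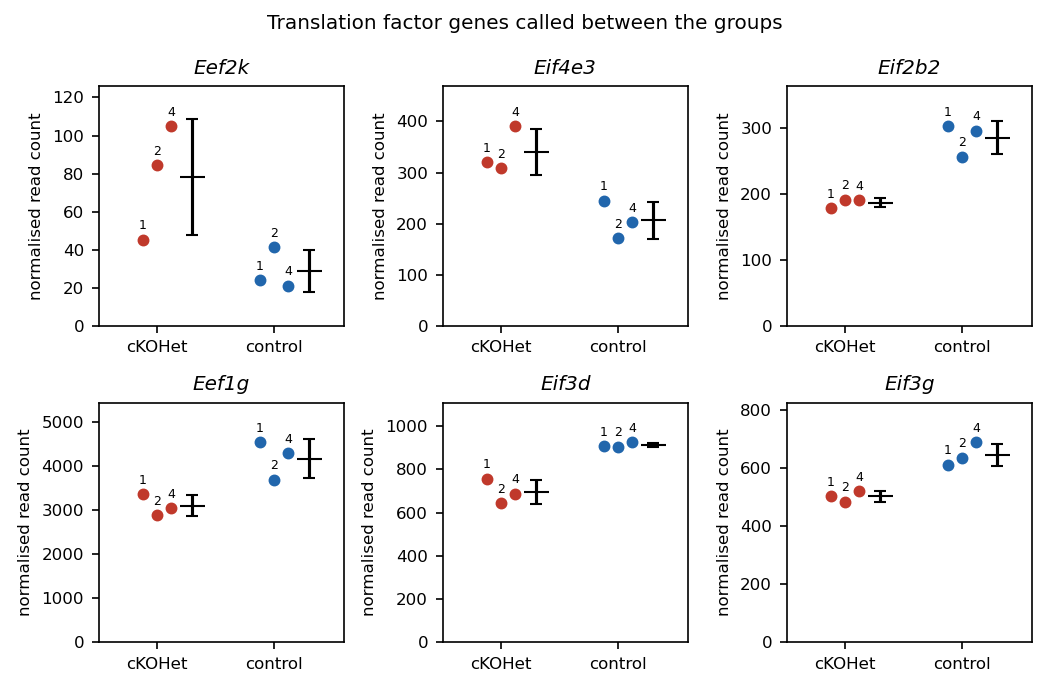
Normalised read counts of the 6 called genes in each library, cKOHet in red and control in blue, with replicate numbers beside the points. The bars are the mean and SD of 3 libraries per group. Eef2k and Eif4e3 are higher, and Eif2b2, Eef1g, Eif3d and Eif3g lower, in all 3 cKOHet libraries than in any control.

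Since both Ets1 alleles were floxed in cKOHet mice, promoter windows from 250 bases before to 50 after the annotated start were searched. The sequences sought were the ETS-family core CCGGAA and the longer CCGGAAGT that contains it, on both strands. RefSeq (GRCm38.p6) windows matched 45 of the 57 tested members. The core was present in 22 of these 45 genes (48.9%), against 35.2% of 8269 matched tested genes and 16.7% of all 27025 genes with a window. Among genes called higher it was present in 24.7% and among those called lower in 22.7%. The longer form was found in 17.8% of the matched members, 10.6% of the matched tested genes and 4.31% of all genes. Among the called members, Eif2b2, Eif3d and Eif3g had the core and Eef2k did not, in any of its 3 windows. Members not called had it too, such as Eif1ax, Eif3c and Eif3m. Only 4 called members had a window, and a link of the core to direction was not tested. Eef1g and Eif4e3 were not among the matched genes. The windows of the 3 genes that fell and the first window of Eef2k are shown 5′ to 3′ in the direction of transcription, with the core in capitals.
Eif2b2, chr12:85219231-85219530, plus strand: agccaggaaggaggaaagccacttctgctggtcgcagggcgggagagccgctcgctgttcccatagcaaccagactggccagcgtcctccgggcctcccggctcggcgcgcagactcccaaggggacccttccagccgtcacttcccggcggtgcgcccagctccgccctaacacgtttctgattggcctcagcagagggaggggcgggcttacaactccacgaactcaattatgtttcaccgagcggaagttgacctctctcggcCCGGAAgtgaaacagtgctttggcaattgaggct
Eif3d, chr15:77970775-77971074, minus strand: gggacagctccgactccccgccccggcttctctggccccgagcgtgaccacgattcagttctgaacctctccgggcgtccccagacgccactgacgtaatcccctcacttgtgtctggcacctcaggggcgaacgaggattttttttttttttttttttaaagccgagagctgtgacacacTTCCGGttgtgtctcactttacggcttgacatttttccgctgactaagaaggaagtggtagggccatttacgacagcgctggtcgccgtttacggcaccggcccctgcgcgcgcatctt
Eif3g, chr9:20898541-20898840, minus strand: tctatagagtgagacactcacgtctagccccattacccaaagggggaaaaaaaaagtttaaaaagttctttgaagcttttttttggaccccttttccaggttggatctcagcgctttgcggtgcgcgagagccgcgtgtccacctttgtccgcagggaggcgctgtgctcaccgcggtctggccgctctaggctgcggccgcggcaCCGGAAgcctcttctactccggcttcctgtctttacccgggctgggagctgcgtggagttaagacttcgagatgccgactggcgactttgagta
Eef2k, chr7:120842581-120842880, plus strand: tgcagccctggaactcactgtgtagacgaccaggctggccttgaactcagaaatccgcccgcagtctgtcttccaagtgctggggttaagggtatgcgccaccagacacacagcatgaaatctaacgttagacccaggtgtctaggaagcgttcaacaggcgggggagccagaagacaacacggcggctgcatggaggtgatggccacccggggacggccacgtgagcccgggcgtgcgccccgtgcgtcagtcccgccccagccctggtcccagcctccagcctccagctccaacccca
The core begins 16 bases after the annotated start in Eif2b2, 69 bases before it in Eif3d and 44 bases before it in Eif3g. In Eif3d it appears as TTCCGG, the core on the other strand. No binding was measured in these data, and a match is a description of the sequence.

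Levels can be compared between genes only per length, here as normalised read counts per kilobase of annotated exon. Eef1a1 stood first, at 26509 in cKOHet and 31476 in control cells, followed by Eef2 at 6368 in cKOHet and 6931 in control cells. Eef1g, Eef1b2, Eif5a, Eif3h and Eif1 came next, between 1004 and 1296 in cKOHet and between 1006 and 1606 in control cells. At the low end stood Eif5a2, Eif2b3 and Eef2k, at 10.6 to 14.7 per kilobase in cKOHet and 3.88 to 12.9 in control cells. Eef2k was last of the 57 in both groups. Eif4e3 exceeded Eif4e per kilobase in both groups, at 135.2 against 67.0 in cKOHet and 82.1 against 61.3 in control cells. Exon lengths are unions over all annotated transcripts, so a gene with long unused exons appears lower.

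Other genes of translation also changed little. Of 82 tested in 10 lists, 3 rose and 5 fell (9.76%, against 21.4% of all genes), with a median log2 difference of -0.06. Among 22 cytosolic aminoacyl-tRNA synthetase genes and their scaffolds none rose and 2 fell (9.09%, against 9.97% of all genes called lower). Vars, the valyl-tRNA synthetase, was at 891.4, 979.6 and 922.1 in cKOHet libraries, against 2025, 1991 and 2522 in controls. That was the strongest change of the lists (log2 difference -1.22, SE 0.12, adjusted p = 3.32e-06). Tars, the threonyl enzyme, averaged 347.4 ± 39.6 in cKOHet and 501.8 ± 53.6 in control cells (-0.53, adjusted p = 0.0147).

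Of 12 genes of mTORC1 and cap-binding control, 2 rose (16.7%, against 11.5% of all genes called higher). Ddit4, an mTORC1 inhibitor also called REDD1, was at 523.7, 507.1 and 363.2 in cKOHet libraries, against 211.3, 221.6 and 282.3 in controls (log2 difference 0.95, SE 0.17, adjusted p = 0.0009). Rheb, the GTPase that activates mTORC1, averaged 401.5 ± 55.8 in cKOHet and 294.7 ± 9.14 in control cells (0.44, adjusted p = 0.0464). Its call ended without cKOHet replicate 1 or 2 or any 1 control (adjusted p = 0.0868 to 0.185), with no filter (0.0516), with column-sum scaling (0.052) and with a replicate block (0.0576). The other 10 were not called.

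Of 8 other initiation helpers, the helicase gene Ddx3x rose and Tpt1 fell (25% called, against 21.4% of all genes). Ddx3x averaged 3508 ± 96.4 in cKOHet and 2656 ± 367.4 in control cells (0.41, adjusted p = 0.0276), and Tpt1, a growth-linked translationally controlled protein, 14293 ± 1931 in cKOHet and 19905 ± 2070 in control cells (-0.48, adjusted p = 0.0402). Paip2b, a repressor that binds the poly(A)-binding protein, fell alone among 5 genes of that list (20%, against 9.97% of all genes called lower). It was at 342.4, 284.5 and 305.0 in cKOHet libraries against 478.2, 444.1 and 485.1 in controls (-0.60, adjusted p = 0.00515). Sephs2, which makes the selenium donor for selenocysteine, was the 1 of 3 in its list that fell (33.3%, against 9.97% of all genes called lower). It averaged 641.1 ± 58.0 in cKOHet and 861.1 ± 114.7 in control cells (adjusted p = 0.0324). Ddx3x, Tpt1, Tars and Sephs2 each lost the call when single libraries were left out, with adjusted p up to 0.154, 0.173, 0.07 and 0.154.

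No gene was called among 5 termination and recycling factors, 4 eIF2 kinases, 5 tested genes of the response to eIF2 phosphorylation, 9 diphthamide and hypusine enzymes and 9 mitochondrial translation factors. Over all genes 21.4% were called, and in lists this short a lack of calls does not show that a list was unchanged. The kinases Eif2ak1 and Eif2ak4 averaged 481.4 ± 41.8 and 97.6 ± 11.4 in cKOHet cells, against 442.9 ± 72.9 and 98.7 ± 7.53 in controls. Of the response genes, Ppp1r15a, the stress-induced phosphatase subunit that acts on eIF2, was at 84.6, 84.3 and 97.9 in cKOHet libraries and 127.4, 124.4 and 151.1 in controls (-0.59, adjusted p = 0.063). Ppp1r15b, the constitutive one, differed by 0.21 (adjusted p = 0.329). Pelo and Abce1, which rescue and recycle ribosomes, differed by -0.40 and -0.11 (adjusted p = 0.226 and 0.645). Dnajc24 and Dph7, of the diphthamide pathway that modifies eEF2, differed by -0.34 and -0.27 (0.467 and 0.462). Tufm and Mtif2, which serve the mitochondrial ribosome, differed by -0.36 and -0.30 (0.13 and 0.255), and Tufm was called without control replicate 2 (-0.53, adjusted p = 0.0298).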

How the data were processed

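Transcripts were measured by RNA sequencing in 6 liver iNKT1 libraries, and the single deposited table holds 1 signal value for each Ensembl gene, named by the authors as normalised HTSeq counts. RNeasy mini kits gave the RNA and the Ovation Ultralow kit the libraries, per the labels' protocols. Trimmomatic 0.33, STAR, HTSeq 0.6.1 and DESeq2 with mm10 are named per the submitters' processing notes, without their settings. Low values lie in bands offset differently in each library, so whole reads were not recovered and depth is unknown. The smallest maximum of any gene was 5.22, so low genes had been removed. In both groups the code of replicate 1 holds 2 names, and no label says why.

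GENCODE M21 (GRCm38) named 12870 of 12942 genes. Genes at or above 10 in at least 3 libraries were tested with limma 3.58.1 in R 4.3.3 on log2(value + 1), with a trend in the prior variance and p-values adjusted over 11226 genes by Benjamini and Hochberg, and the procedure was tested on simulated data. No count test was run, since the values are not counts. The series text calls the 3 replicates independent but names no mice. The p-values therefore reflect only how these libraries vary. The members and lists were chosen with earlier results of these data known. Genes were named by a rule (called members, the most abundant member not called in each role, chosen core factors, and up to 4 called genes or 2 others per list), and the other members named were added after their values were seen. Alternatives covered the pseudocount, filter, scaling, variance model and threshold, a replicate block, and leaving out each library. A term for the libraries without Xist and a fit of the 4 libraries with Xist were added after seeing the data.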

Additional observations from a re-analysis of the deposited data

How the results depend on the processing

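The count of called members was 5 to 8 with other pseudocounts, filters, scalings and variance models, and 5 with a replicate block, which ended the call of Eif3g (adjusted p = 0.0601). Among the related translation genes, the block ended that of Rheb (adjusted p = 0.0576), and it called 2412 genes in all. Same-numbered libraries correlated in their deviations at 0.05 to 0.09, and differently numbered ones at -0.12 to 0.03. The same-numbered values were the higher ones but small, and no label pairs the libraries, so the numbers were not taken as pairs. The 4 libraries with Xist alone gave 1 called member (Eif4ebp2, not among the 6) and 5 related genes. With a threshold of 0.01, the counts were 1 member, 3 related genes and 1476 of all genes. Leaving out 1 library gave 2 to 9 called members, 3 to 8 related genes and 1883 to 2207 genes in all. Per library left out, called members numbered 9 without cKOHet replicate 1, 2 without cKOHet replicate 2, 5 without cKOHet replicate 4, and 2, 4 and 2 without control replicates 1, 2 and 4.

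Signs changed for 19 genes, none called, whose reported log2 differences were at most 0.17 in size and reached 0.22 after the change of sign, so their directions are not established. With 1 library left out, the fits spanned -0.18 to 0.01 for Abce1, -0.37 to 0.03 for Eef1akmt2, -0.20 to 0.06 for Eef1e1, -0.13 to 0.05 for Eif1a, -0.03 to 0.20 for Eif1ad and -0.15 to 0.06 for Eif1b. They spanned -0.10 to 0.06 for Eif2ak4, -0.19 to 0.22 for Eif2b3, -0.08 to 0.07 for Eif2b4, -0.06 to 0.15 for Eif2s1, -0.06 to 0.24 for Eif2s3x, -0.12 to 0.06 for Eif3c and -0.34 to 0.03 for Eif3i. They spanned -0.06 to 0.06 for Eif3l, -0.13 to 0.06 for Eif4b, -0.08 to 0.01 for Eif4g2, -0.02 to 0.09 for Eif4h and -0.03 to 0.20 for Eif5a. In the 4 libraries with Xist alone the value was 0.00 for Eef1akmt2 and Eif1b, 0.05 for Eif1a, 0.03 for Eif2ak4, 0.04 for Eif3f, 0.01 for Eif3l and 0.02 for Eif4b. With library weights it was 0.01 for Eif2ak4 and 0.00 for Eif3l. The cause of these changes was not tested. The depth is unknown, and Eef2k was removed by a filter of 50, so it has no value there.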
